A study of Mus musculus with 3 samples.

Results

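The data described here are the levels of 10 genes that mark lung fibroblast subtypes, taken from a table of 53342 mouse genes. The 10 were found by name after the Ensembl identifiers of the table were matched to symbols. Inmt, Tcf21, Pdgfra, Npnt and Fgf10 mark alveolar fibroblasts, and Dcn, Lum, Pi16, Dpt and Mfap5 mark adventitial fibroblasts. Bulk RNA was sequenced from the lungs of 3 male C57Bl/6 mice, 1 library per mouse, called mouse 4, 5 and 6 here after the last digit of their labels. All 3 had been challenged through the trachea with microparticles of Mycobacterium abscessus, in 50 µL holding the equivalent of 1000000 bacteria, so that granulomas would develop. All 3 also received MIA602, which blocks the receptor for growth hormone-releasing hormone, at 5 µg under the skin each day for 3 weeks, in a series on sarcoidosis. The age of the mice is not given in the labels. Challenge and drug are shared by every mouse, so the 3 form 1 group and no effect of either can be read from these values. What can be described is how strongly each gene was expressed in the treated lungs and how far the 3 animals differed.

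The libraries held 31579465 to 43845715 counts, and 17636 genes passed the filter on low counts, all 10 fibroblast genes among them. Levels are given as CPM, counts scaled to a library of 1000000. Lung surfactant transcripts were abundant, with Sftpc at 17704 CPM and Sftpa1 at 3563 CPM on average. Mouse 4 stood apart in skeletal muscle and squamous epithelium transcripts, whose values are given with those of other tissues. In bulk tissue a difference in level between mice can reflect fewer cells of a type or less RNA per cell, and the 2 cannot be told apart.

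Fibroblasts are the matrix-making cells of the lung. Alveolar fibroblasts lie in the walls of the air sacs beside the epithelium, where they supply growth factors to alveolar type 2 cells and store lipid. Adventitial fibroblasts form cuffs around large vessels and airways, lay down collagen-rich matrix and share many genes with fibroblasts of other organs. None of the 10 genes is made by 1 cell type alone. Npnt is also made by alveolar type 1 cells, Pdgfra by myofibroblasts and Dcn by fibroblasts of every kind.

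Promoter sequences of RefSeq (build GRCm38.p6), 250 bases before to 50 bases after a gene's start, were found for 7 of the 10 genes. Those of Inmt, Npnt, Dpt and Pi16 are shown because Inmt and Npnt had the highest alveolar levels and Dpt and Pi16 are the adventitial genes with a window. The capitals mark 2 motifs, searched on both strands. One is TATAAA, the core of the TATA box. The other is CAGCTG, which is a form of the E-box CANNTG that basic helix-loop-helix proteins such as TCF21 recognise. The Inmt window is chr6:55174941-55175240 on the minus strand, the Npnt window chr3:132950242-132950541 on the minus strand, the Dpt window chr1:164796413-164796712 and the Pi16 window chr17:29318632-29318931, both on the plus strand.
Inmt: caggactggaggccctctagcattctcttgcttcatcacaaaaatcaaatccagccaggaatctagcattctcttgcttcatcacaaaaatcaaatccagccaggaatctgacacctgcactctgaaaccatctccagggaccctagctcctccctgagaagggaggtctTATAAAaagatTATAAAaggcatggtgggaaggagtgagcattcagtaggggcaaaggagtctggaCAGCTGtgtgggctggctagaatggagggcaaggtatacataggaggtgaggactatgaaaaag
Npnt: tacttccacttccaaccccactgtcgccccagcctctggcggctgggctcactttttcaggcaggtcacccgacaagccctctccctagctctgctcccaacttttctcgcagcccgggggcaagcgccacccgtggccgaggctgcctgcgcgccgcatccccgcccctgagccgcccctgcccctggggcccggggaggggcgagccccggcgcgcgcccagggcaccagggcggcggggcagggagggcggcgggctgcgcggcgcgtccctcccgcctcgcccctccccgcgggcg
Dpt: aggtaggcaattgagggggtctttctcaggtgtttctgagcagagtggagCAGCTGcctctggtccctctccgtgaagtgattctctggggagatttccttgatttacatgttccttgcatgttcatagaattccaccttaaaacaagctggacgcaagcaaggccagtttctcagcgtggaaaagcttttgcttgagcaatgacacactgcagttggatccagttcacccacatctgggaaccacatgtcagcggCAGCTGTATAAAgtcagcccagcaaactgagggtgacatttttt
Pi16: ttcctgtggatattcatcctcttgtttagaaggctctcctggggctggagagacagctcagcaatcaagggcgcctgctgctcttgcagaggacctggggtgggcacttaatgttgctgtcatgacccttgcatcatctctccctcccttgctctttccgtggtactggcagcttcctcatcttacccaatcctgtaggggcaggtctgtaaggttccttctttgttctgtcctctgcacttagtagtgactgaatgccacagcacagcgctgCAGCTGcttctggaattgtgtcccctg
The Inmt window held TATAAA at 2 places, which begin 80 and 69 bases before the RefSeq start and 27 and 16 bases before the start in GENCODE. It held 1 CAGCTG and no CG dinucleotide, and 5.43% of all 32851 promoter windows had no CG. The Npnt window shown was rich in CG, with 32, more than in 90.5% of windows, and held neither motif. In Dpt, 1 CAGCTG begins 200 bases before the RefSeq start and another runs directly into TATAAA without sharing a base. That TATAAA begins 12 bases after the RefSeq start and 31 bases after the start in GENCODE. The Pi16 window held 1 CAGCTG, which begins 23 bases after the RefSeq start and 1225 bases after the start in GENCODE. Of all windows of the same length, 16.3% held CAGCTG and 13.6% held TATAAA on either strand. CANNTG, which includes CAGCTG, was present in 72.3% of windows, in 7 copies in Dpt and in none in Tcf21 or the Npnt window shown. A second Npnt window, not shown, held 26 CG and 3 copies of CANNTG. These are matches of letters and not shown to be binding sites.

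The alveolar genes spanned a wide range of levels, led by Inmt. Inmt, which encodes an enzyme that adds methyl groups to tryptamine and other amines (ENSMUSG00000003477, chromosome 6, 55170626 to 55175043, minus strand), had 17180, 35161 and 15871 counts in mice 4, 5 and 6, or 399, 972 and 500.5 CPM. Mouse 5 was the high one, 2.44 times mouse 4 and 1.94 times mouse 6. The mean was 624 ± 306 CPM (SD, n = 3), above 99.2% of tested genes. Npnt, nephronectin, a basement membrane protein that binds the integrin α8β1 (ENSMUSG00000040998, chromosome 3, 132881745 to 132950291, minus strand), stood at 232, 354 and 208 CPM, a mean of 265 ± 78.2. Again mouse 5 was highest, with mice 4 and 6 close together.

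Pdgfra, the receptor for platelet-derived growth factor A that marks alveolar fibroblasts and myofibroblasts (ENSMUSG00000029231, chromosome 5, 75152292 to 75198215, plus strand), had 106, 127 and 93.5 CPM and a mean of 109 ± 16.8. Tcf21, a helix-loop-helix transcription factor of lung mesenchyme that is needed for lung development (ENSMUSG00000045680, chromosome 10, 22817281 to 22820174, minus strand), had 32.7, 51.6 and 31.85 CPM and a mean of 38.7 ± 11.2. Mice 4 and 6 differed by 1.03-fold at Tcf21, while mouse 5 was 1.58 and 1.62 times as high as mice 4 and 6. Fgf10, the fibroblast growth factor that signals to lung epithelium through Fgfr2 (ENSMUSG00000021732, chromosome 13, 118669791 to 118792115, plus strand), had 287, 316 and 190 counts, or 6.66, 8.74 and 5.99 CPM, and 7.15 CPM over the summed libraries with an exact Poisson interval of 6.66 to 7.66 at 95%. Such intervals cover counting error only.

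Of the adventitial genes, Dpt, Mfap5 and Dcn had the smallest coefficients of variation of the 10 (6.62%, 9.75% and 11.5%), while that of Lum (23.8%) was above those of Pdgfra (15.5%) and Fgf10 (20.1%). No test of a difference in spread between the classes was made. Dpt, dermatopontin, a small matrix protein that binds decorin (ENSMUSG00000026574, chromosome 1, 164796644 to 164824266, plus strand), had 136, 154 and 139.9 CPM in mice 4, 5 and 6 and a mean of 143 ± 9.49. Of all tested genes, 26.6% had a lower coefficient of variation. Dcn, decorin, a small leucine-rich proteoglycan that coats collagen fibrils (ENSMUSG00000019929, chromosome 10, 97479609 to 97518143, plus strand), had 148, 124 and 119.99 CPM and a mean of 131 ± 15.1. Mouse 4 was the high one here and mice 5 and 6 differed by 1.03-fold. Mfap5, a glycoprotein of elastic microfibrils (ENSMUSG00000030116, chromosome 6, 122505845 to 122529290, plus strand), had 62.9, 64.96 and 75.2 CPM, highest in mouse 6, and a mean of 67.7 ± 6.60.

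Pi16, a secreted CAP domain protein that marks adventitial fibroblasts in many organs (ENSMUSG00000024011, chromosome 17, 29317680 to 29330593, plus strand), had 14.3, 19.1 and 15.4 CPM, highest in mouse 5, with a mean of 16.3 ± 2.498. Lum, lumican, a relative of decorin that also spaces collagen fibrils (ENSMUSG00000036446, chromosome 10, 97565128 to 97572703, plus strand), had 343, 229 and 156 counts, or 7.96, 6.33 and 4.92 CPM, highest in mouse 4 and lowest in mouse 6 by 1.62-fold. Its level over the summed libraries was 6.56 CPM (exact Poisson interval 6.09 to 7.06 at 95%). Lum and Dcn are neighbours on chromosome 10, on the same strand and 46984 bases apart with no annotated gene between them. Lum made up 5.11% of the summed Dcn and Lum counts in mouse 4 (exact Clopper-Pearson interval at 95%, 4.59 to 5.66), 4.85% in mouse 5 (4.26 to 5.50) and 3.94% in mouse 6 (3.35 to 4.59). The interval of mouse 5 overlaps both others, and that of mouse 6 ends just below the start of that of mouse 4.

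**Figure D1:**
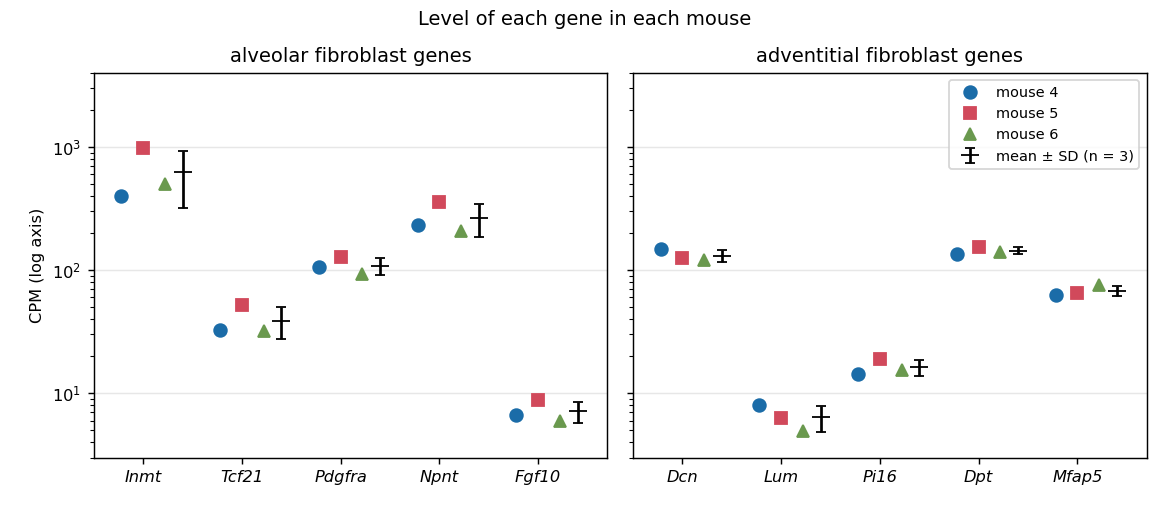
CPM (log axis) of the 10 genes in mouse 4 (circles), mouse 5 (squares) and mouse 6 (triangles), with the mean and SD over 3 mice beside them, alveolar genes on the left and adventitial genes on the right. The square lies on top for all 5 alveolar genes and for Pi16 and Dpt, while Dcn and Lum were highest in mouse 4 and Mfap5 in mouse 6.

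Levels of different genes were compared after division by exon length, merged over all annotated transcripts of a gene. The transcripts expressed were not resolved, so the divisor depends on the annotation. It covered 9 transcripts for Pdgfra and 1 each for Dpt and Lum. Per kilobase of exon Inmt led in every mouse, with a mean of 389.9 ± 191 CPM per kilobase (SD, n = 3), followed by Dpt at 83.2 ± 5.50, Npnt at 52.7 ± 15.6 and Dcn at 22.4 ± 2.58. Mfap5 at 18.9 ± 1.84, Tcf21 at 16.5 ± 4.75 and Pdgfra at 10.8 ± 1.68 CPM per kilobase came next, and Lum, Pi16 and Fgf10 were lowest at 2.62 ± 0.622, 2.56 ± 0.392 and 1.55 ± 0.311. On this scale the order of alveolar and adventitial genes was interleaved. Neighbours whose ranges over mice overlapped were Dcn with Mfap5, Mfap5 with Tcf21 and Lum with Pi16, so their order was not resolved. All other neighbours were ordered alike in 3 of 3 mice. That agreement cannot check the exon lengths used, which were the same for each mouse.

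**Figure D2:**
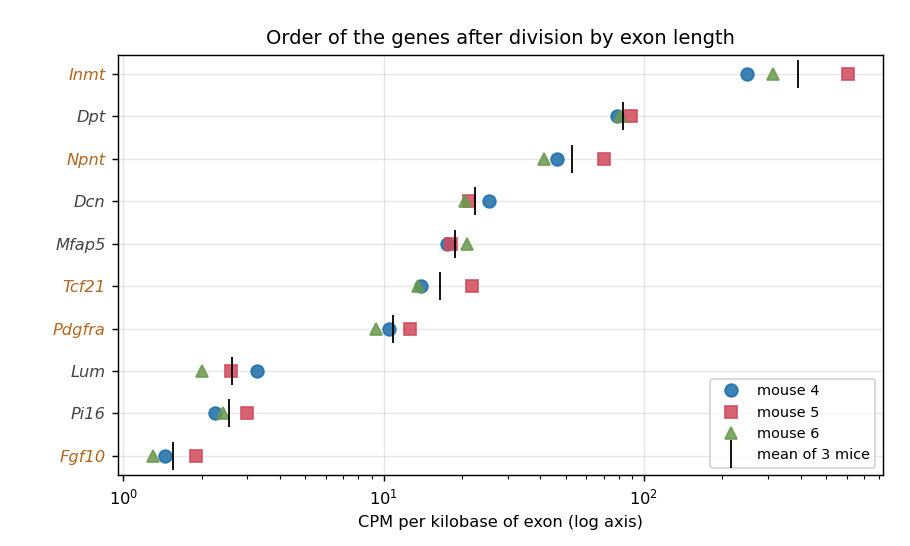
CPM per kilobase of exon (log axis) of each gene in mouse 4 (circles), mouse 5 (squares) and mouse 6 (triangles), with a bar at the mean of 3 mice, and alveolar gene names in brown and adventitial ones in grey. Inmt stands clear of the rest at 249 to 608, and Lum, Pi16 and Fgf10 lie together at 1.30 to 3.25.

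Each class total was led by 1 gene, Inmt for the alveolar and Dpt for the adventitial class. The 5 alveolar genes summed to 321, 715 and 378 CPM per kilobase in mice 4, 5 and 6, against 127, 134 and 127 for the 5 adventitial genes. Without Inmt the other alveolar genes summed to 72.1, 107 and 65.7 CPM per kilobase, below the adventitial sum in each mouse. That adventitial sum still held Dpt, at 79.0, 89.4 and 81.2 CPM per kilobase, so only 1 class had lost its leading gene. In counts not divided by exon length, the alveolar genes without Inmt made up 50.5%, 59.5% and 48.9% of the counts left. The median alveolar gene differed from the median adventitial gene by -0.21 ± 0.44 on the log2(CPM per kilobase + 0.5) scale (SD, n = 3), less than the spread between mice, with values of -0.32, 0.27 and -0.58. With means of genes in place of medians, the sign turned, at 0.87 ± 0.33. No test was made of these sums, since the genes were chosen with earlier results known.

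Mouse 5 was highest for every alveolar gene and for only part of the adventitial ones. All 5 alveolar genes and 2 of 5 adventitial genes, Pi16 and Dpt, were highest in mouse 5, where 36.4% of all tested genes were highest. Of all tested genes 33.5% were highest in mouse 4, as were Dcn and Lum, and 30.1% in mouse 6, as was Mfap5. The median alveolar gene was higher in mouse 5 than in mouse 4 by 0.61 on the log2(CPM + 0.5) scale and than in mouse 6 by 0.69, whereas the median adventitial gene differed by 0.05 and 0.14. Over all tested genes the medians were -0.0029 and 0.00083. Mice 4 and 6 were not ordered the same way, since 4 alveolar genes were lowest in mouse 6, as were 30% of tested genes, and Inmt was lowest in mouse 4, as were 33.3%. Inmt was the only one of the 10 genes past 2-fold between any pair of mice, higher in mouse 5 than in mouse 4, as were 0.924% of tested genes. None of the 10 was past 2-fold in another direction, and the share of tested genes past it was 0.215% for mouse 5 over mouse 6, 1.62% for mouse 4 over mouse 5, 1.33% for mouse 4 over mouse 6, 0.306% for mouse 6 over mouse 4 and 0.448% for mouse 6 over mouse 5.

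The spread of each gene between mice was tested against that of genes of like level with edgeR's quasi-likelihood fit. With Benjamini-Hochberg adjustment over 17636 genes no gene passed 0.05 (0%), and the lowest adjusted p among the 10 was 0.955. The trend and the scatter allowed around it were estimated from these same genes in 3 mice. A count of 0 therefore does not show that no gene varied in excess. With no filter on low counts, which left 30751 genes, 629 of them (2.05%) passed, and of the 10 Inmt, Tcf21 and Npnt did. At an unadjusted p under 0.05 the filtered fit listed 867 genes, 4.92% of those tested, and 3 of the 10, which were Inmt, Tcf21 and Npnt. The same 3 were listed by limma, which named 850 genes (4.82%) and none after adjustment. DESeq2 marked 102 genes (0.578%) as dispersion outliers, Inmt among them and none of the other 9. The adjusted edgeR p-values of the other 7 genes ran from 0.984 for Pdgfra to 0.995 for Dpt. The coefficient of variation of Inmt, 49.1%, exceeded that of 97.2% of tested genes, and those of Npnt and Tcf21, 29.5% and 28.8%, exceeded that of 88.5% and 87.9%.

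Within a mouse the genes did not keep fixed proportions to one another. Inmt counts were 12.2, 18.9 and 15.7 times Tcf21 counts in mice 4, 5 and 6. Inmt took 34.8% of the counts of all 10 genes in mouse 4 (exact Clopper-Pearson interval 34.4 to 35.2), 51.7% in mouse 5 (51.3 to 52.04) and 41.9% in mouse 6 (41.4 to 42.4). With Inmt left out, the alveolar share of the remaining counts was 50.5%, 59.5% and 48.9%, again highest in mouse 5. The counts of Npnt and of Itga8, the integrin chain that binds nephronectin, kept a nearly fixed ratio. Itga8 was picked after its values were seen. Npnt had 5.03, 4.99 and 5.22 times the counts of Itga8, although both genes varied between mice.

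A second set of 12 alveolar fibroblast genes, none of them among the 10, was also highest in mouse 5. Like the 10, this set was chosen with earlier results of these data known, so it is not independent support. Bulk levels do not show which cells made these transcripts, and the part of other cell types was not tested. All 12 were highest in mouse 5, against 36.4% of tested genes, and their median was higher in mouse 5 than in mouse 4 by 0.58 and than in mouse 6 by 0.45 on the log2 scale. The order of the other mice was not shared, as 7 of the 12 were lowest in mouse 4 and 5 in mouse 6. None passed after adjustment, and 5 of 12 had an unadjusted edgeR p under 0.05, as had 4.92% of tested genes. The most abundant were Mfap4, a microfibril protein, at 729, 739 and 612 CPM in mice 4, 5 and 6, the cytoskeletal linker Macf1 at 578, 659.7 and 528, and Limch1 at 269.6, 414 and 252. The smallest p belonged to Ces1d, a carboxylesterase named after its values were seen, with 136, 323 and 228 CPM in mice 4, 5 and 6 (edgeR adjusted p = 0.955). The 13 further adventitial genes were mixed, with 2, 6 and 5 of them highest in mice 4, 5 and 6 and log2 medians of 0.05 and 0.0053 for mouse 5 over mice 4 and 6. Gsn, the actin-severing gelsolin, had 970.2, 1663 and 1132 CPM, Ly6a, the surface protein Sca-1, 630.2, 602 and 784, and Ly6c1 335, 347 and 365. Ly6a and Ly6c1 are also made by endothelial cells and belong to a family of similar genes, so reads may have been shared. None of these 13 had an unadjusted p under 0.05.

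**Figure D3:**
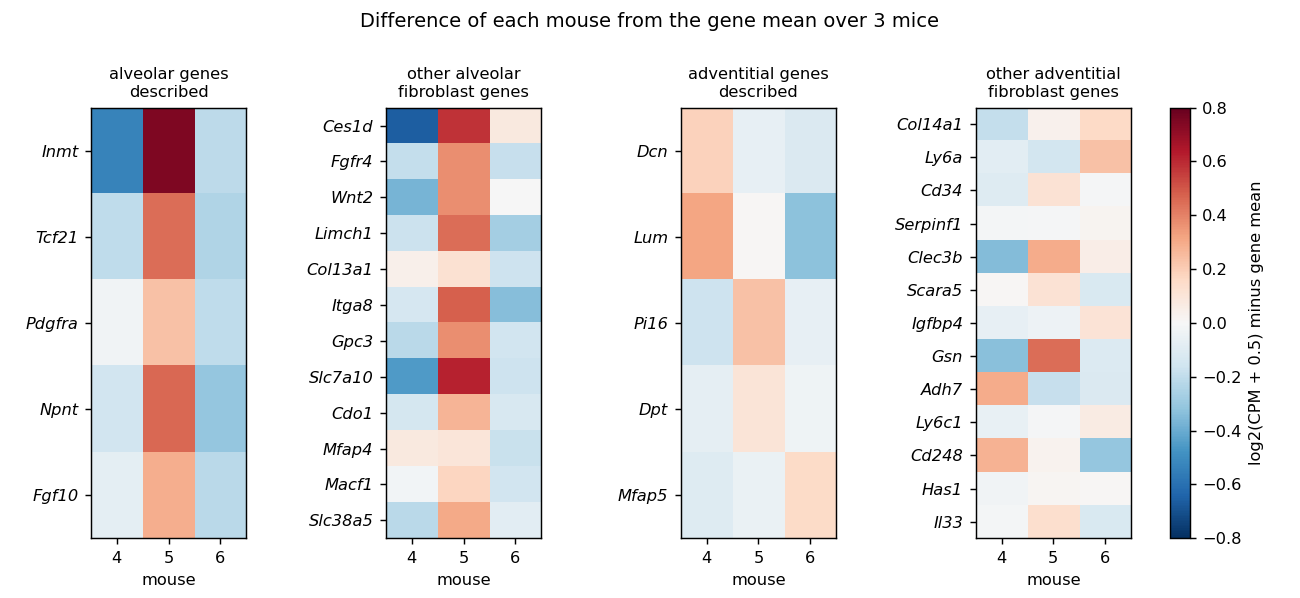
Log2(CPM + 0.5) of each mouse minus the gene's mean over 3 mice, red above and blue below, for the alveolar and adventitial genes described and for 12 and 13 further genes of each kind. The column of mouse 5 is red for all 5 and all 12 alveolar genes and mixed for the adventitial genes.

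General fibroblast genes were spread over the mice. Of 11 pan-fibroblast genes, 5 were highest in mouse 4, 2 in mouse 5 and 4 in mouse 6, against 33.5%, 36.4% and 30.1% of tested genes, none had an unadjusted edgeR p under 0.05, and their median difference for mouse 5 over mouse 4 was -0.11. Biglycan, Bgn, a proteoglycan related to decorin, averaged 1025 ± 13.02 CPM, Col3a1 849 ± 46.4 and Col1a1 588 ± 68.4. The summed level of Col1a1, Col1a2 and Col3a1 was lowest in mouse 5, so that scaling to it can only raise mouse 5 against the others. On that scale Inmt was 2.77 times as high in mouse 5 as in mouse 4 and 2.09 times as high as in mouse 6, and Dcn was 0.953 times as high in mouse 5 as in mouse 4.

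The partners of the 10 genes were taken from lists of their pathways that include the genes themselves. Of all tested genes, for comparison, 36.4% were highest in mouse 5 and 4.92% had an unadjusted edgeR p under 0.05. Of 7 platelet-derived growth factor genes, 5 were highest in mouse 5, Pdgfra among them, and none had an unadjusted p under 0.05. The receptor Pdgfrb of pericytes stood at 137 ± 11.1 CPM and the ligands Pdgfa and Pdgfb at 128 ± 21.2 and 117 ± 10.3. Pdgfra made up 45.2%, 45.9% and 41.4% of the counts of both receptors in mice 4, 5 and 6. In the list around Fgf10, 13 of 15 genes, Fgf10 among them, were highest in mouse 5, and 3 of the others had an unadjusted p under 0.05. Its receptor Fgfr2 had 108, 159 and 118 CPM, Fgf1, another ligand, 98.4, 174 and 101, and the target Etv5 of FGF signalling in epithelium 89.1, 124 and 102. Etv4, a related target, was lowest in mouse 5 with 2.02, 0.996 and 1.39 CPM, and Gli1, a target of hedgehog signalling, was highest in mouse 6 at 12.5 CPM against 12.3 in mouse 5 and 10.3 in mouse 4.

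Of the 7 genes listed with nephronectin, 6, Npnt among them, were highest in mouse 5 and 2 had an unadjusted p under 0.05, Npnt itself and Itga8. The integrin chain Itgb1, which many cells make, averaged 640 ± 77.95 CPM and Egfl6, a relative of nephronectin, 65.4 ± 6.93. Of the 8 genes listed with Tcf21, 5 were highest in mouse 5, Tcf21 among them. Tcf4, an E protein that pairs with helix-loop-helix factors, averaged 255 ± 26.9 CPM, and the inhibitors Id2 and Id3, which sequester E proteins, 214 ± 21.1 and 111 ± 15.8. Of this list only Tcf21 had an unadjusted p under 0.05.

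Decorin and lumican belong to the small leucine-rich proteoglycans, of which 9 of 11 were tested. Prelp had 110, 174 and 115 CPM in mice 4, 5 and 6, and Ogn, osteoglycin, 75.4, 122 and 63.8. These 2 had an unadjusted p under 0.05 and were highest in mouse 5, unlike Dcn and Lum. Bgn and Dcn were the other leading members of the list. Kera and Epyc, genes of the same chromosome 10 cluster, had 3, 0 and 0 and 3, 3 and 1 counts and were not tested. Of 12 microfibril genes, Mfap5 included, 5, 6 and 1 were highest in mice 4, 5 and 6 and none had an unadjusted p under 0.05. Elastin, Eln, averaged 980.1 ± 161 CPM, highest in mouse 4, and Ltbp2 262 ± 41.3. Mfap5 counts were 2.23, 1.74 and 2.57 times those of its relative Mfap2.

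Relatives of Inmt and Pi16 differed in level and in order. Nnmt, the nicotinamide methyltransferase, had 8.34 ± 0.632 CPM and was highest in mouse 4 at 8.84, and Pnmt, which makes adrenaline, had 2, 4 and 5 counts. Among 8 CAP superfamily genes, Pi16 included, 6 were tested, 4 of them highest in mouse 5, Pi16 among them. Glipr2 averaged 97.3 ± 14.7 CPM, Glipr1 85.7 ± 19.1 and Crispld2 54.4 ± 20.8. Crispld2, with 32.0, 73.04 and 58.1 CPM, was the 1 gene of this list with an unadjusted p under 0.05 (edgeR adjusted p = 0.906).

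Transcripts of other cell types of the alveolar wall were, like the alveolar fibroblast genes, mostly highest in mouse 5, and those of immune cells were mostly lowest there. In mice 4, 5 and 6 the median alveolar type 1 gene had 234, 326 and 254 CPM, and 6 of 7, led by Ager and Hopx at 1969 and 432 CPM, were highest in mouse 5. These cells also make Npnt. Endothelial genes had medians of 186, 303 and 207 CPM, with 5 of 5 highest in mouse 5, led by Pecam1 and Cdh5 at 458 and 346 CPM. Alveolar type 2 genes had 1449, 2113 and 1731 CPM (6 of 6 highest in mouse 5), club and ciliated genes 539.8, 1248 and 999 (4 of 4, led by Scgb1a1 at 16153 and Cyp2f2 at 1526 CPM) and erythroid genes 364, 742 and 507 (3 of 3, led by Hbb-bs at 1031 and Hba-a1 at 538 CPM). Macrophage genes had 488, 247 and 300.5 CPM, lowest in mouse 5 for 4 of 5 and led by C1qa and C1qb at 568 and 413 CPM. T cell genes had 44.5, 31.5 and 53.1 CPM and B cell genes 63.6, 50.1 and 77.2, lowest in mouse 5 for 4 of 4 each and led by Cd4 and Cd3e at 57.1 and 56.7 and by Cd79a at 95.3 CPM. Of all tested genes 36.4% were highest and 36.8% lowest in mouse 5. The part of these cell types in the levels of the fibroblast genes was not tested.

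Further tissues and cell types were followed in the same way. Some of them, such as smooth muscle, pericytes and mesothelium, are parts of the lung. Others can be carried along with a dissected lung and hold fibroblasts of their own. The source of these transcripts was not tested. Skeletal muscle genes had medians of 570.5, 216 and 187 CPM in mice 4, 5 and 6, led by Acta1 and Ckm at 1072 and 442 CPM, with 8 of 8 highest in mouse 4, as were Dcn and Lum. Squamous epithelium genes had 55.4, 19.6 and 17.6 CPM (5 of 5 tested highest in mouse 4, led by Krt13 and Krt5 at 80.4 and 50.2 CPM), where 33.5% of all tested genes were highest. Adipocyte genes had 4.06, 1.49 and 3.59 CPM, led by Cfd and Cidec at 35.2 and 5.80, and Schwann cell genes 6.64, 5.39 and 5.42, led by Mbp at 62.03. Cardiac muscle genes had 49.3, 24.2 and 68.8 CPM, lowest in mouse 5 for 4 of 4, as were 36.8% of tested genes. They were led by Actc1 and Myh6 at 103 and 52.5. Smooth muscle and pericyte genes had 54.3, 73.3 and 71.8 CPM, led by Des at 348 and Acta2 at 143. Of these 7 genes, 2, 3 and 2 were highest in mice 4, 5 and 6. Des, at 526, 276 and 243 CPM, was highest in mouse 4, like the skeletal muscle genes, whereas Acta2 was lowest there. Mesothelial genes had 13.4, 15.8 and 10.8 CPM, led by Msln at 66.6 and Upk3b at 18.8. Cartilage genes were near the limit of detection, with medians of 0.162, 0.166 and 0.189 CPM and Comp at 0.560, apart from Chad at 39.8. Acan, the cartilage proteoglycan, had 0 counts throughout; a count of 0 allows a level of 0.0696, 0.0830 or 0.0946 CPM in mouse 4, 5 or 6, set by 3 counts. The part of these tissues in the levels of Dcn and Lum was not tested.

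**Figure D4:**
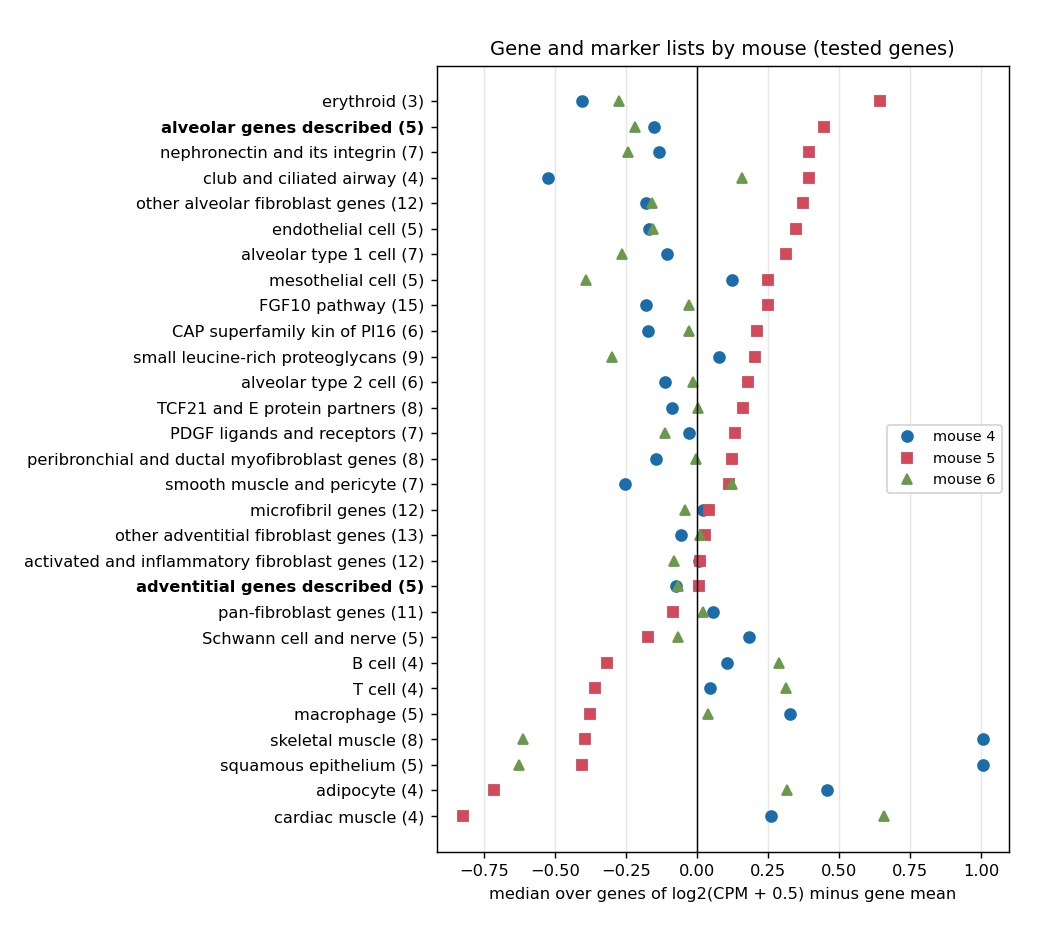
Median over the tested genes of each list (their number in brackets) of log2(CPM + 0.5) minus the gene's mean over 3 mice, in mouse 4 (circles), mouse 5 (squares) and mouse 6 (triangles), for lists with at least 3 tested genes. The alveolar genes described, at 0.445 in mouse 5, lie between the erythroid list at 0.645 and the nephronectin list at 0.393. The endothelial and alveolar type 1 lists lie lower, at 0.349 and 0.313. The adventitial genes described, at 0.01 in mouse 5, lie near 0.

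Of the 10 genes, 3 share exon bases with another annotated gene, and reads lost or gained there were not measured. The use of strand in counting is not given in the sources used here. Pdgfra shares 456 bases of exon with the antisense gene Gm42802, which had 7, 8 and 6 counts in mice 4, 5 and 6, 166 bases with the antisense Gm42803, with 3, 1 and 4, and 30 bases with Mir7025 on its own strand, with 1, 16 and 7. Fgf10 shares 123 with the antisense Gm16263, which had 3, 5 and 3. Pi16 shares 222 bases of exon with an antisense gene that was not analysed here. The other 7 genes share no exon base with another annotated gene.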

How the data were processed

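Per the labels' protocols, lung RNA was purified on Direct-zol columns and a Nugen Universal mRNA kit served for library preparation. Per the submitters' processing notes, STAR 2.5.2a, Trim Galore 0.6.2 and bcl2fastq 2.17 were used, with build mm10. Which tool and annotation gave the counts is not given in the sources used here. The authors deposited whole-number counts for each Ensembl gene, not normalized.

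Symbols, coordinates (1-based) and merged exon lengths came from GENCODE M21 of the same build, which matched 53237 of 53342 identifiers. The genes described and the gene lists were chosen with earlier results of these data known. All 10 genes are named, with the 3 most abundant genes of each other gene list and the 2 most abundant of each marker list, and any other gene was chosen after its values were seen. The second gene of 2 marker lists is not reported here. CPM used library totals and TMM factors of 0.982, 1.01 and 1.00 for mice 4, 5 and 6. Logs were log2(CPM + 0.5). The spread test used edgeR 4.0.16 (filterByExpr, intercept alone, robust), where each gene's quasi-dispersion was compared with the trend in a one-sided F test for excess (prior degrees of freedom 3.88). The test was also run on simulated counts, where each gene was given exactly the dispersion of the trend. That run cannot show the power of the test here, since the real genes varied around the trend. Limma 3.58.1 and DESeq2 1.42.0 were alternatives, under R 4.3.3, with Python 3.11.15 for levels. With 3 mice no outlier test was made. Numbers of reads and not molecules were counted, so intervals cover counting error only.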

Additional observations from a re-analysis of the deposited data

How the results depend on the processing

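With DESeq2 size factors, library totals alone, non-robust estimation, limma or a filter of 1 CPM in every mouse, 0 genes passed the spread test, as in the report. With no filter on low counts 629 of 30751 genes passed, 3 of the 10 fibroblast genes among them, and with DESeq2 dispersion outliers 102 genes and 1 of the 10; the cause was not tested. Leaving out each mouse gave 0 to 13 genes and 0 of the 10, with 13 genes when mouse 4 was left out. Genes past 2-fold between any mice numbered 586, and 1008 with a pseudocount of 0.1 CPM. They numbered 117 to 448 with 1 mouse left out, since fewer pairs remain, and of the 10 genes 0 to 1, with Inmt past 2-fold in none of these when mouse 4 or mouse 5 was left out. Genes highest in mouse 5 numbered 6421, and 10160 with no filter, where more genes were counted. All 5 alveolar and 12 further alveolar genes were highest in mouse 5 with DESeq2 size factors and with library totals alone. With mouse 4 or mouse 6 left out, a gene highest in mouse 5 stays so by construction. The adventitial genes highest in mouse 5 then numbered 3 to 4 of 5 and the further adventitial genes 7 to 10 of 13, beside 8847 and 8724 of all 17636 tested genes without mouse 4 and without mouse 6. The alveolar minus adventitial difference reversed to 0.87 with means of genes and to 0.67 with no division by exon length, and ran from -0.45 to -0.03 with 1 mouse left out. No paired analysis was possible because all 3 libraries belong to 1 group.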

Other observations

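Genes of activated, inflammatory and airway-associated fibroblasts, not described above, were not all highest in 1 mouse. Postn, the matrix protein periostin, averaged 222 ± 33.9 CPM, the chemokine Cxcl12 210.3 ± 11.7 and the collagen cross-linker Lox 88.96 ± 13.8 (SD, n = 3). Of 12 tested genes of this list, 4 were highest in each mouse, and 2, 3 and 7 were lowest in mice 4, 5 and 6. Of all tested genes 33.5%, 36.4% and 30.1% were highest and 33.3%, 36.8% and 30% lowest in these mice. In this list 1 gene had an unadjusted edgeR p under 0.05, as had 4.92% of tested genes. Cthrc1, a gene of fibrotic fibroblasts named after its values were seen, had 78, 77 and 52 counts in mice 4, 5 and 6, and Lrrc15, another, 0, 2 and 3 counts, at or under 3 counts in each library. Of 8 genes of peribronchial and ductal myofibroblasts, 2, 4 and 2 were highest and 5, 0 and 3 lowest in mice 4, 5 and 6. None of these 8 had an unadjusted p under 0.05. Enpp2, which makes lysophosphatidic acid, averaged 87.3 ± 14.1 CPM, Mustn1 31.8 ± 6.17 and Hhip, a hedgehog inhibitor, 24.2 ± 2.64.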
